A study of Mus musculus with 42 samples.

Results

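The genes of the synaptonemal complex and its HORMA domain partners were followed through RNA-seq of sorted spermatogonia. They were chosen by name and comprised Sycp1, Sycp2, Sycp3, Syce1, Syce2, Syce3, Tex12, Hormad1 and Hormad2, which are 9 of the 27179 genes of the count table. All 9 had enough reads to be tested in every comparison. The 12 libraries came from C57BL/6J male mice at 10 dpp (days post-partum), in 4 groups of 3. Control mice were Ddx4-Cre; Chd8+/F and mutant mice were Ddx4-Cre; Chd8F/-, so the controls also carried the Cre transgene and a floxed allele. Ddx4-Cre is driven by a germ cell promoter and removes the floxed part of Chd8, the gene of a chromatin remodeler, in the germline. By these genotypes, control germ cells keep an intact allele beside the one open to deletion, so they are not wild type. Mutants also carry a deleted allele outside the germline, which controls do not. From each genotype, cells were retained with magnetic beads by the surface antigen Thy1, which the study used to enrich undifferentiated spermatogonia, or by c-Kit, which marks differentiating spermatogonia. The libraries also held RNA of other testis cells, and stromal markers were abundant in the Thy1+ libraries, as given below. Each analysis used the testes of 3 pups.

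The synaptonemal complex is a protein structure that zips homologous chromosomes together along their length during meiotic prophase I. SYCP2 and SYCP3 form the lateral elements along each chromosome axis, SYCP1 spans the gap between the axes as the transverse filament, and SYCE1, SYCE2, SYCE3 and TEX12 build the central element in the middle. HORMAD1 and HORMAD2 coat axes that have not yet synapsed, HORMAD1 being needed for the formation of meiotic double-strand breaks and HORMAD2 for the surveillance of unsynapsed axes. Spermatogonia have no synaptonemal complex, but transcripts of its genes are known to accumulate in germ cells before the structure is assembled.

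The 9 genes lie on 8 chromosomes of the mouse genome (mm10). Their promoters are shown for 4 members, the ones with the steepest and the shallowest fall in c-Kit+ mutants (Sycp2 and Syce2) and the pair with the most motif matches (Hormad1 and Sycp3). Each line holds the 250 bases before the annotated start site, 5′ to 3′ on the strand of the gene, as given by RefSeq on GRCm38.p6, the same assembly as mm10. The windows are chr2:178407659-178407908 on the minus strand for Sycp2, and on the plus strand chr3:95559427-95559676 for Hormad1, chr10:88459337-88459586 for Sycp3 and chr8:84871861-84872110 for Syce2. Capitals mark matches, on either strand, to GCGGGA, a core of sites bound by E2F proteins, to CACGTG, an E-box, and to CNCCTCAG, a motif reported for the meiotic regulator STRA8.
Sycp2: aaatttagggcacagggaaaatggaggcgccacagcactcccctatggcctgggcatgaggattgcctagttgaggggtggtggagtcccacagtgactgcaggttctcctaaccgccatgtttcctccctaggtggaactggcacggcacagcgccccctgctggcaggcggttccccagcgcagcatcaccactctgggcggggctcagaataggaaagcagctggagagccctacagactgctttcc
Hormad1: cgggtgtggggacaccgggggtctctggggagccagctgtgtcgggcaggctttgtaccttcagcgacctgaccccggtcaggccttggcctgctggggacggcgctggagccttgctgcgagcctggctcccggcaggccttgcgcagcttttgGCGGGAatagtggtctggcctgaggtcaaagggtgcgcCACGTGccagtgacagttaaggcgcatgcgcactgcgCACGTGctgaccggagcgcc
Sycp3: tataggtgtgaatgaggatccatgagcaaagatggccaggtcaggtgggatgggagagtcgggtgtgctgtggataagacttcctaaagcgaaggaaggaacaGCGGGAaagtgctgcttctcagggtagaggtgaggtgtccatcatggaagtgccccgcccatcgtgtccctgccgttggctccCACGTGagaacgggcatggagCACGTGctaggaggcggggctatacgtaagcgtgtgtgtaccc
Syce2: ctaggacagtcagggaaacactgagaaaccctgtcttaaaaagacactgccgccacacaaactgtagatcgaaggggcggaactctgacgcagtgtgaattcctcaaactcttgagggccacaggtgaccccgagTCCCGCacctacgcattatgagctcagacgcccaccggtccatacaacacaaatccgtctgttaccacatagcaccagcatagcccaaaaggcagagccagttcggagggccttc

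CACGTG was present in 4 of the 9 promoters (Sycp1, Sycp3, Tex12 and Hormad1), against 6.02% of 32851 mouse promoter windows of the same length. Hormad1 and Sycp3 each held a pair of such E-boxes, at 57 and 20 bases before the start of Hormad1 and at 64 and 43 bases before that of Sycp3. GCGGGA was present in 4 of 9 (Sycp3, Syce2, Tex12 and Hormad1), against 16.9% of all windows, and CNCCTCAG only in that of Hormad2, against 6.42%. No base was shared by matches to different motifs. The GC content of the 9 windows ran from 53.2% (Syce1) to 68% (Hormad1), with a median of 57.2% beside 52.4% over all windows. Their count of CpG (C followed by G) ran from 5 to 20, with a median of 12 beside 6 over all windows. CACGTG and GCGGGA each contain a CpG, and their shares were not compared with windows of like CpG count. The promoters of Sycp2, Syce1 and Syce3 held none of the 3 motifs. A match is a description of these letters and does not show binding.

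Reads were counted on RefSeq exons, and library totals ran from 32266861 to 45396233 counts. Levels are given as CPM (counts scaled to library size with the TMM factors of edgeR) and, where genes are compared with each other, as RPKM (the same per kilobase of exon). Among the checks of the sort, Kit was higher in c-Kit+ than in Thy1+ controls by 1.19 ± 0.246 (log2 ± SE) and the log2 fold change of Thy1 was -4.22 ± 0.284. Chd8 itself was counted over the whole gene, between 258.4 and 315.5 CPM in all 12 libraries, and such counts do not test the loss of the floxed part. Every germ cell marker was detected in every library. Of 8 genes listed as markers of pachytene spermatocytes and later cells, Pgk2, Acr, Adam2, Spata16 and Ldhc had group means under 1 CPM, Ccna1 had 1.3 to 3.17 CPM, Piwil1 9.95 to 19.8 CPM and Hspa2 34 to 50.2 CPM.

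All 9 genes were expressed in all 4 groups. On the RPKM scale, Sycp3 stood highest in c-Kit+ controls with 145.4 ± 33.2 (mean ± SD, n = 3), followed by Syce2 with 112.2 ± 13.1 and Sycp1 with 92.5 ± 22.1. Hormad2 was lowest with 16.95 ± 3.98, and Syce3 was next with 31.73 ± 3.02. The mean CPM of each gene was highest in c-Kit+ controls and lowest in Thy1+ mutants, with a ratio between these groups from 2.46 for Syce2 to 4.86 for Hormad1. The middle of the order differed between structural classes. For Sycp2, Sycp3, Sycp1, Hormad1 and Hormad2, the genes of the axes and the transverse filament, the mean of Thy1+ controls was above that of c-Kit+ mutants. For the 4 central element genes, Syce1, Syce2, Syce3 and Tex12, the order of these groups was the other way round. For Syce1 the 2 means were nearly level, at 60.81 CPM in c-Kit+ mutants and 60.62 CPM in Thy1+ controls. Libraries of the 2 middle groups overlapped for every gene except Sycp2, in which Thy1+ controls were all higher, and Syce2, in which c-Kit+ mutants were all higher. The lowest 2 groups did not overlap for Sycp3 and Hormad1 and overlapped for the other 7 genes.

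**Figure D1:**
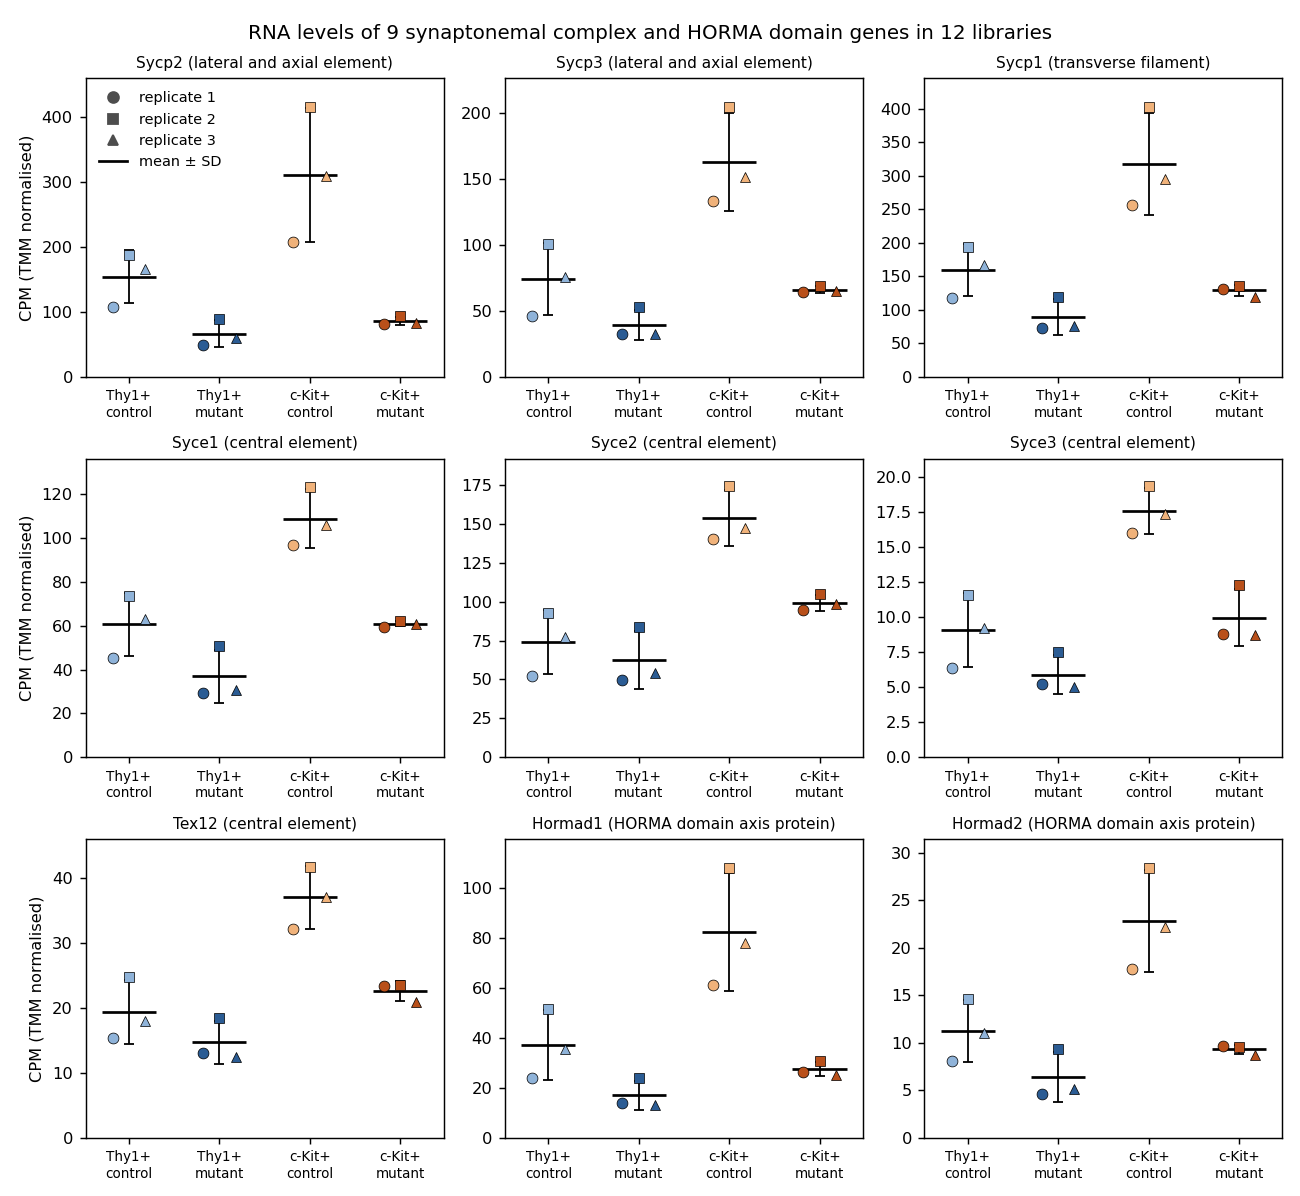
RNA level of each of the 9 genes in CPM (y axis, from 0) in the 4 groups (x axis), with each point a library, its shape the replicate number, and bars the mean ± SD of 3 libraries. In every panel the c-Kit+ controls were above the c-Kit+ mutants without overlap, and replicate 2 was the highest library of the c-Kit+ controls, the Thy1+ controls and the Thy1+ mutants.

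The first question was what the loss of Chd8 left of these transcripts in c-Kit+ cells. All 9 genes were lower in mutants, by a log2 fold change between -0.69 (Syce2) and -1.91 (Sycp2), and the values of the 5 axis and transverse filament genes (-1.35 to -1.91) lay beyond those of the 4 central element genes (-0.69 to -0.90), a contrast between classes that was not itself tested. Differences were tested with edgeR's quasi-likelihood F test on the counts, and a gene was called at an FDR (Benjamini-Hochberg over all genes tested) under 0.05 with an absolute log2 fold change over 0.5. By this rule 9 of 9 were called lower, against 7.41% of the 17134 genes tested. The median log2 fold change was -1.35, beside 0.0107 over all genes tested. Control and mutant libraries did not overlap for any of the 9, against 20.6% of all genes that were lower without overlap. In bulk RNA, fewer cells of a type and less RNA per cell cannot be told apart.

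Sycp2, whose product anchors the lateral element, had the largest difference. It stood at 207.8, 414.5 and 309.6 CPM in the c-Kit+ controls and at 81.86, 93.4 and 82.33 CPM in the c-Kit+ mutants. The lowest control was thus more than 2-fold above the highest mutant, while the 3 mutants lay close together. The log2 fold change was -1.91 ± 0.199 (edgeR, FDR = 0.000209). In Thy1+ cells it stood at 108, 186.9 and 166.1 CPM in controls and at 49.1, 89.64 and 60.28 CPM in mutants. These groups did not overlap either, and the log2 fold change was -1.20 ± 0.268 (edgeR, FDR = 0.211).

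Sycp3, which encodes the other lateral element protein and is widely used to stain meiotic chromosome axes, followed at a smaller distance. Its levels were 133.2, 204.8 and 151.4 CPM in c-Kit+ controls and 64.15, 69.08 and 64.85 CPM in c-Kit+ mutants. The log2 fold change was -1.36 ± 0.135 (edgeR, FDR = 0.000188). In Thy1+ cells, controls had 46.25, 100.6 and 75.49 CPM and mutants 32.59, 52.76 and 32.57 CPM. Here mutant replicate 2 was above control replicate 1, and the log2 fold change of -0.91 ± 0.304 did not pass (edgeR, FDR = 0.335). Sycp3 shares 80 bases of exon with Chpt1 on the opposite strand, and since counting did not use strand, a few of its reads may come from that gene. No exon of the other 8 members overlaps another gene.

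Sycp1 encodes the transverse filament protein. It was counted at 255.7, 402.8 and 295.3 CPM in c-Kit+ controls and at 131.5, 136.1 and 119.4 CPM in c-Kit+ mutants, with a log2 fold change of -1.36 ± 0.141 (edgeR, FDR = 0.000209). The Thy1+ controls had 117.7, 193.1 and 167.2 CPM and the Thy1+ mutants 72.18, 119.7 and 75.29 CPM. Mutant replicate 2 exceeded control replicate 1 by a small margin, and the log2 fold change of -0.83 ± 0.245 was not called (edgeR, FDR = 0.3).

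Among the HORMA domain genes, Hormad1 had the second largest difference of the 9. Its c-Kit+ controls were at 61.04, 107.9 and 78.05 CPM and its c-Kit+ mutants at 26.39, 30.67 and 25.19 CPM. The log2 fold change was -1.64 ± 0.179 (edgeR, FDR = 0.000236). In Thy1+ cells, controls had 23.94, 51.66 and 35.57 CPM and mutants 13.88, 23.82 and 13.09 CPM. The groups only just missed each other, at control replicate 1 and mutant replicate 2, and the log2 fold change was -1.12 ± 0.327 (edgeR, FDR = 0.3). Hormad2 was expressed at a lower level, with 17.74, 28.38 and 22.19 CPM in c-Kit+ controls and 9.623, 9.493 and 8.743 CPM in c-Kit+ mutants. Its log2 fold change of -1.35 ± 0.164 (edgeR, FDR = 0.000334) was between those of Hormad1 and the central element genes. The Thy1+ libraries of Hormad2 overlapped, with 8.122, 14.59 and 11.02 CPM in controls and 4.617, 9.357 and 5.153 CPM in mutants (log2 fold change -0.81 ± 0.328, edgeR, FDR = 0.385).

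The central element genes showed the smallest differences. Syce1, which links the central element to SYCP1, stood at 96.92, 123.4 and 106 CPM in c-Kit+ controls and at 59.6, 61.93 and 60.91 CPM in c-Kit+ mutants. The mutants were almost level with each other, and the log2 fold change was -0.90 ± 0.09 (edgeR, FDR = 0.000192). Syce2, whose product forms fibres with TEX12, was at 140.4, 174.4 and 147.3 CPM in controls and at 94.58, 104.7 and 98.6 CPM in mutants. Its log2 fold change of -0.69 ± 0.087 (edgeR, FDR = 0.000378) was the smallest of the 9, with a 95% confidence interval that reached from -0.885 to -0.498. Tex12 was at 32.18, 41.79 and 37.15 CPM in controls and 23.41, 23.49 and 20.9 CPM in mutants (log2 fold change -0.77 ± 0.111, edgeR, FDR = 0.000653). Syce3, the shortest of the 9 transcripts in exon length (553 bases), was at 15.99, 19.31 and 17.34 CPM in controls and 8.797, 12.27 and 8.743 CPM in mutants (log2 fold change -0.88 ± 0.154, edgeR, FDR = 0.00167). Its mutant replicate 2 was set apart from the other 2 but remained below the lowest control.

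In Thy1+ cells the libraries of all 4 central element genes overlapped between genotypes. Syce1 was at 45.06, 73.55 and 63.25 CPM in controls and 29.09, 50.95 and 30.56 CPM in mutants, with a log2 fold change of -0.71 ± 0.261 (edgeR, FDR = 0.361). Syce2 was at 52.13, 92.94 and 77.49 CPM in controls and 49.7, 83.69 and 54.29 CPM in mutants, and its log2 fold change of -0.24 ± 0.26 (edgeR, FDR = 0.696) was within its error. For Syce3 (6.354, 11.58 and 9.218 CPM against 5.187, 7.504 and 4.991 CPM) the log2 fold change was -0.61 ± 0.276 (edgeR, FDR = 0.415). For Tex12 (15.35, 24.84 and 17.94 CPM against 13.01, 18.51 and 12.51 CPM) it was -0.39 ± 0.234 (edgeR, FDR = 0.496). A p that misses the threshold does not show that Thy1+ mutants and controls were alike.

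**Figure D2:**
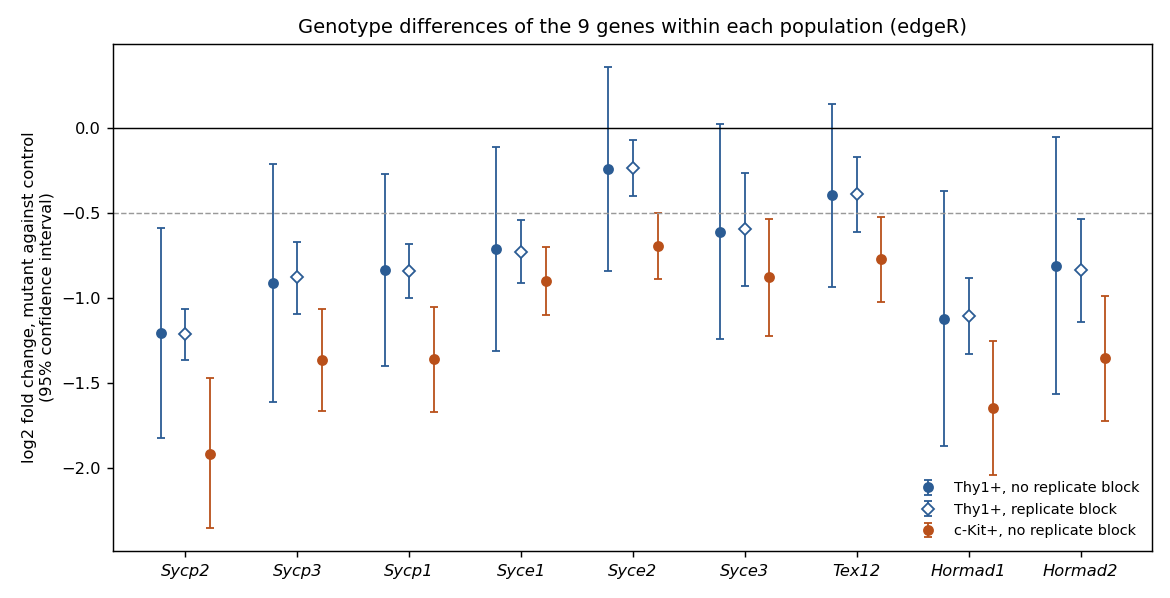
Log2 fold change of mutant against control for each gene (y axis, with 95% confidence intervals; the dashed line marks the call limit of -0.5) in Thy1+ cells without and with the replicate number as a block, and in c-Kit+ cells. All 9 intervals of the c-Kit+ cells lay below 0, and in Thy1+ cells the intervals of Syce2, Syce3 and Tex12 reached above 0 unless the block was used.

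In Thy1+ cells as a whole, 0 of 9 were called lower by the quasi-likelihood test without a replicate block, as were 0% of the 17416 genes tested. All 9 fold changes were nevertheless negative (median -0.81, beside 0.0249 over all genes). An unadjusted p under 0.05 was reached by 6 of the 9 and by 2151 of all genes. The exact test of edgeR, which the study used, called Sycp2, Sycp1 and Hormad1 (3 of 9, against 1.57% of all genes), and DESeq2 called Sycp2 and Hormad1. Control and mutant libraries were apart for Sycp2 and Hormad1 only, against 10.7% of all genes that were lower without overlap. Replicate 2 was the highest and replicate 1 the lowest control library for each of the 9 genes. In mutants replicate 2 was also the highest for each, but replicate 3 was the lowest for Sycp3, Syce3, Tex12 and Hormad1. Over all genes tested, after subtraction of group means, control and mutant libraries with the same replicate number correlated at 0.399 to 0.646. Those with different numbers correlated at -0.507 to -0.0423. Deviations from a group mean sum to 0, so positive values for equal numbers push the others below 0, and these are no separate evidence of pairing. With the replicate number as a block, 7 of 9 were called lower, against 4.92% of all genes. The log2 fold changes under the block were -1.21 ± 0.07 for Sycp2 (edgeR, FDR = 4.77e-08) and -1.11 ± 0.107 for Hormad1 (edgeR, FDR = 4.05e-06). The 2 genes not called were Syce2 (-0.24 ± 0.0776, edgeR, FDR = 0.0311) and Tex12 (-0.39 ± 0.104, edgeR, FDR = 0.0103), which passed the FDR but not the limit on the fold change.

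Whether the genotype difference itself differed between populations was tested as an interaction over all 12 libraries, in which a gene was called at an FDR under 0.05. All 9 interaction terms were negative, that is, the fall was larger in c-Kit+ cells, with a median of -0.39 beside 0.0832 over all genes. Of the members 0 of 9 were called, as were 0% of the 18002 genes tested, with a lowest FDR of 0.235 over all genes. No member reached an unadjusted p under 0.05, against 1804 of all genes, but 3 did under germ cell marker scaling, 2 with the replicate block, 6 without Thy1+ control replicate 2, and 1 each without c-Kit+ control replicate 1 and Thy1+ mutant replicate 1. No alternative run called a member. The median term was -0.71 without Thy1+ control replicate 2, -0.12 without Thy1+ mutant replicate 2, -0.19 without Thy1+ control replicate 1 and -0.22 without c-Kit+ control replicate 2. DESeq2 called 64 genes, 0 of them members. The largest term was that of Sycp2, -0.64 ± 0.372 (edgeR, FDR = 0.589), with a 95% confidence interval from -1.45 to 0.163. A difference between populations was not called with these libraries, and its size depended on which of them were included.

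The fall was uneven within the family, and this could be read inside each library, where the scaling between libraries plays no part. Per library, the RPKM of Syce2 was 2.8, 1.74 and 1.97 times that of Sycp2 in c-Kit+ controls and 4.79, 4.64 and 4.96 times in c-Kit+ mutants. In Thy1+ cells the same ratio was 2, 2.06 and 1.93 in controls and 4.19, 3.87 and 3.73 in mutants. The groups were far apart in both populations, also in Thy1+ cells, where the CPM of Syce2 overlapped. The ratio of Tex12 to Hormad1 moved the same way, from 1.29, 0.949 and 1.17 to 2.17, 1.88 and 2.03 in c-Kit+ cells and from 1.57, 1.18 and 1.23 to 2.3, 1.9 and 2.34 in Thy1+ cells. Both pairs were picked after their values were seen.

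As a share of the summed RPKM of the 9 genes, Sycp2 went from 8.35% ± 1.32 (SD, n = 3) in c-Kit+ controls to 4.94% ± 0.121 in mutants and Hormad1 from 8.38% ± 0.792 to 5.94% ± 0.301. Syce2 went from 17.6% ± 1.46 to 23.7% ± 0.696 and Tex12 from 9.43% ± 0.634 to 12% ± 0.633. Syce2 thereby took the place of Sycp3 as the largest of the 9, since Sycp3 went from 22.5% ± 0.776 to 19.3% ± 0.357. In both populations the mutant libraries were all below the controls in the share of Sycp2, Sycp3, Sycp1 and Hormad1 and all above them in the share of Syce2 and Tex12. The shares of Syce1, Syce3 and Hormad2 were apart in a single population each. Shares add up to 100%, so a loss in some members raises the rest, and no test was run on them. A larger share is not a higher level, as the mean CPM of Syce2 and Tex12 was lower in the mutants of both populations.

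**Figure D3:**
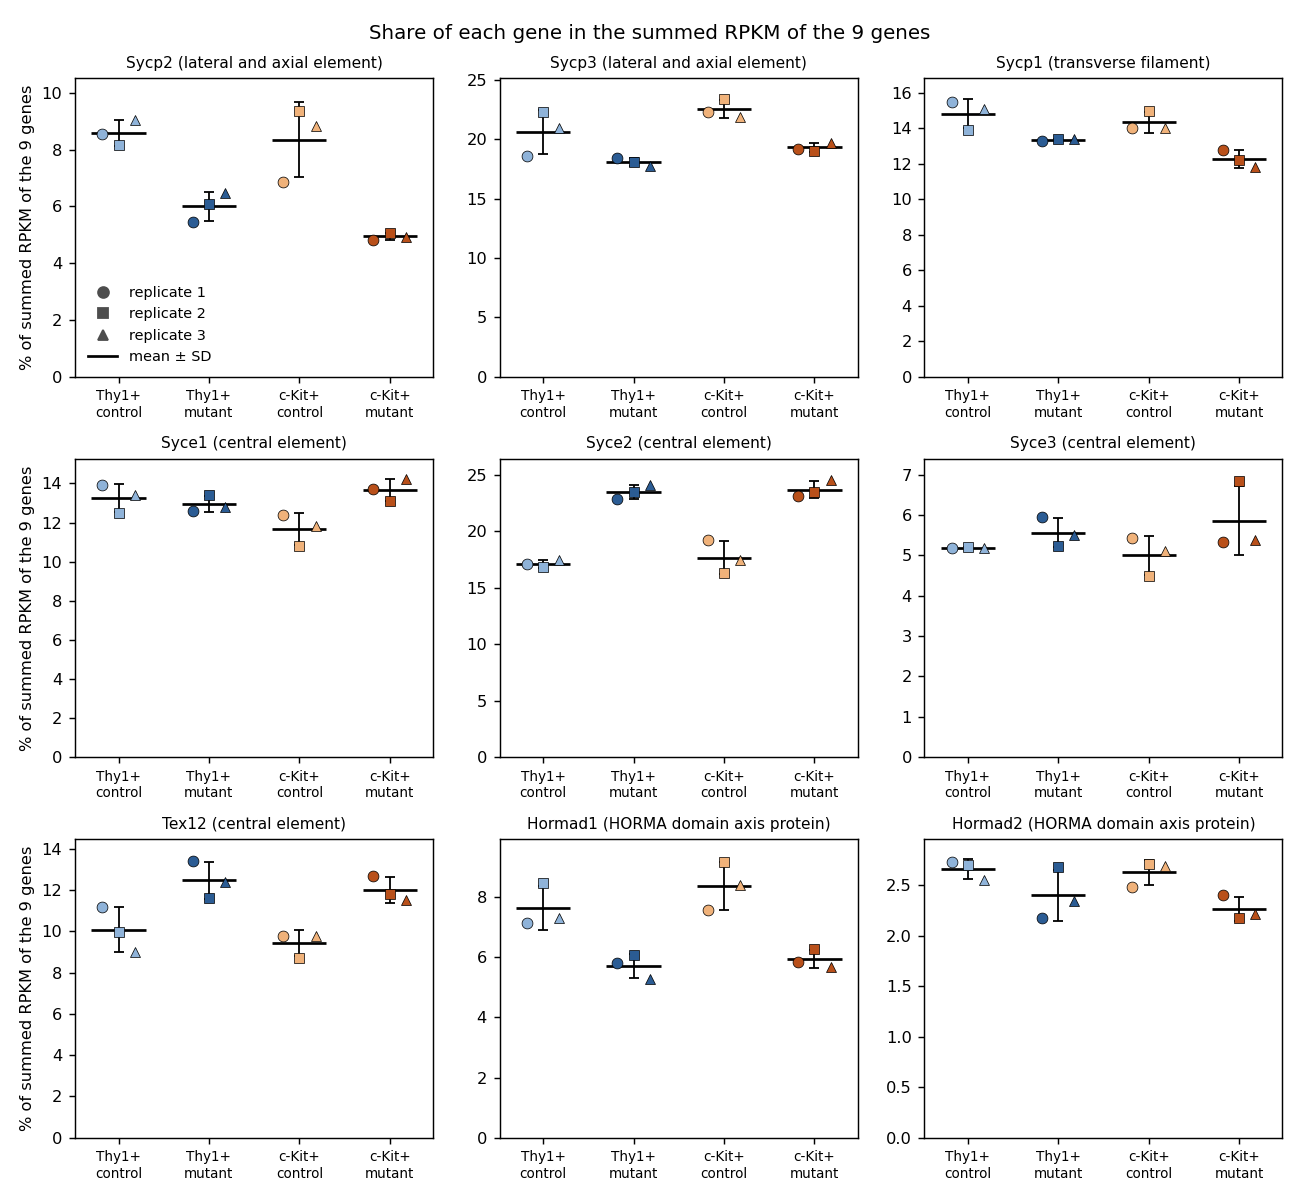
Share of each gene in the summed RPKM of the 9 genes (y axis, percent, from 0) in the 4 groups (x axis), with each point a library, its shape the replicate number, and bars the mean ± SD of 3 libraries. The share of Sycp2 was 4.83% to 6.47% in the 6 mutant libraries and 6.85% to 9.35% in the 6 controls, and that of Syce2 was 22.9% to 24.5% and 16.3% to 19.2%.

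The RNA of cell type markers in the sorted cells moved with the genotype. Whether cell numbers or RNA per cell changed was not tested. Summed over 7 germ cell markers (Ddx4, Dazl, Tex14 and others), c-Kit+ controls had 2347 to 2767 CPM and mutants 1817 to 2099 CPM, and Thy1+ controls had 1553 to 2217 CPM against 1107 to 1806 CPM. In c-Kit+ cells 1 of the 7, Tex14, was called lower, and the median log2 fold change of the 7 was -0.29. All 9 Sertoli cell markers were called higher in c-Kit+ mutants (summed, 575.1 to 1463 CPM in controls and 2305 to 2522 CPM in mutants), as were 7 of 7 stromal, 5 of 7 Leydig, 5 of 6 endothelial, 4 of 6 peritubular myoid, 4 of 5 mast cell and 2 of 7 macrophage markers. Over all genes, 2542 of the 17134 tested in c-Kit+ cells were called higher. No germ, Sertoli or stromal marker was at 0 in any library. In Thy1+ cells none of these lists had a called gene without the block, and with it 8 of 9 Sertoli markers were called higher and 2 of 7 germ cell markers lower. The block also called 2 of 7 macrophage, 1 of 7 Leydig, 1 of 7 stromal and 1 of 5 mast cell markers higher. Over the 17416 genes tested in Thy1+ cells, it called 558 higher and 856 lower. The markers of undifferentiated spermatogonia, such as Gfra1 and Zbtb16, were also at lower levels in the mutant libraries there. All 8 had negative log2 fold changes in Thy1+ mutants (median -0.76, beside -0.81 for the members), 0 were called without the block and 6 with it, and their summed level was 610.8 to 795.9 CPM in controls and 436.2 to 519.6 CPM in mutants. In c-Kit+ cells 1 of the 7 tested was called lower and 1 higher (median -0.0886). Of 8 markers of differentiating spermatogonia, such as Kit and Stra8, 2 were called lower there and 0 higher (median -0.322). Of the markers of pachytene spermatocytes and later cells, 4 were tested in c-Kit+ cells, all with negative log2 fold changes. Hspa2 alone was called lower (-0.62 ± 0.0837, edgeR, FDR = 0.000498). The 8 markers of this list summed to 72.72 to 76.4 CPM in c-Kit+ controls and 53.25 to 56.47 CPM in c-Kit+ mutants. Replicate 1 of the Thy1+ cells had the most Sertoli marker RNA in both genotypes, 2085 and 2716 CPM, against 474.8 to 998 CPM in the other 4 libraries.

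Set against the germ cell markers, the 9 genes were still lower in c-Kit+ mutants. Their summed CPM per geometric mean CPM of the germ cell markers was 4.11, 5.94 and 5.16 in c-Kit+ controls and 2.59, 2.67 and 2.76 in mutants. In Thy1+ cells it was 2.43, 3.23 and 3.69 in controls and 2.39, 2.46 and 2.4 in mutants, so that control replicate 1 lay within the mutant range. When the libraries were scaled by these markers in place of TMM, the median log2 fold change of all genes moved to 0.388 in c-Kit+ and 0.516 in Thy1+ cells, and changes are to be read against those shifts. On this scale the calls over all genes went from 1270 lower and 2542 higher to 438 and 5682 in c-Kit+ cells, and 7 of 9 members were called lower, against 2.56% of all genes, with log2 fold changes of -1.53 ± 0.17 for Sycp2 and -1.26 ± 0.157 for Hormad1. Syce2 (-0.31 ± 0.0944, edgeR, FDR = 0.0164) and Tex12 (-0.39 ± 0.125, edgeR, FDR = 0.02) no longer passed the limit on the fold change. In Thy1+ cells the sign of these 2 genes turned, to 0.22 for Syce2 and 0.08 for Tex12, both still under the median of all genes, and 0 of 9 were called. The part of the other cell types in the result was not tested beyond this scaling.

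**Figure D4:**
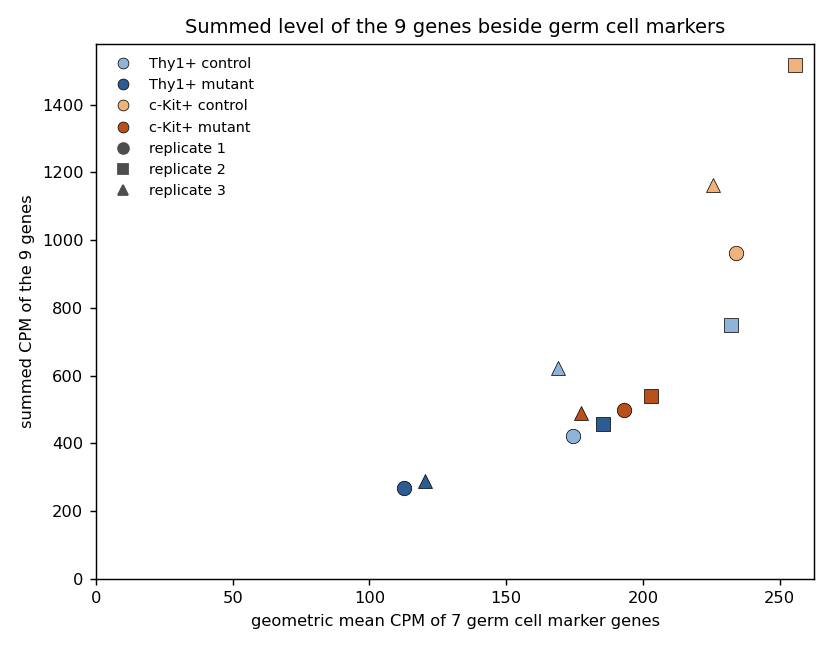
Summed CPM of the 9 genes (y axis, from 0) against the geometric mean CPM of 7 germ cell marker genes (x axis, from 0), with each point a library, its colour the group and its shape the replicate number. The 3 c-Kit+ controls stood at 961 to 1517 CPM of the 9 genes, above the 3 c-Kit+ mutants at 489.7 to 541.1 CPM.

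The next comparison was that of the populations, which are enriched fractions and do not follow the same cells from the Thy1+ to the c-Kit+ stage. The Thy1+ controls also held Kit RNA, at 171.4, 393.4 and 298.3 CPM, against 656.2, 715.8 and 626.2 CPM in c-Kit+ controls. Replicate 1 of the Thy1+ controls was the lowest in Kit and replicate 2 the highest, as for the 9 genes. How far cells with Kit account for the Thy1+ levels was not tested. In controls all 9 were higher in c-Kit+ than in Thy1+ cells, from a log2 fold change of 0.82 ± 0.171 for Syce1 (edgeR, FDR = 0.00721) to 1.13 ± 0.283 for Hormad1 (edgeR, FDR = 0.0151). The call was made for 9 of 9, against 7.08% of 17350 genes tested, with a median of 0.99 beside -0.0278 over all genes. No library of the Thy1+ controls reached any of the c-Kit+ controls in any of the 9, against 24.8% of all genes that were higher without overlap. The values of axis and central element genes were interleaved here, with 0.99 ± 0.26 for Sycp2 and 1.03 ± 0.188 for Syce2, the genes at either end of the genotype comparison. Without replicate 2 of the c-Kit+ controls, the highest library for each gene, Sycp2, Hormad1 and Hormad2 were no longer called, and without replicate 3 of the Thy1+ controls Hormad1 was not. Of 8 markers of differentiating spermatogonia, such as Kit and Stra8, 6 were also called higher in c-Kit+ controls and 1 lower. Their median was 0.933, close to that of the members. Markers of other cells also separated these groups. Between the controls 7 of 7 stromal markers were called lower in c-Kit+ cells (median -2.73, summed 11120 to 14500 CPM in Thy1+ and 1816 to 2274 CPM in c-Kit+ controls), as were 7 of 7 macrophage, 5 of 6 peritubular myoid and 6 of 8 undifferentiated spermatogonial markers, while 5 of 7 Leydig and 4 of 5 mast cell markers were called higher and 2 of 7 germ cell markers were. Their part in the step was not tested beyond scaling by germ cell markers. On that scale, calls over all genes went from 3594 lower and 1229 higher to 4831 and 197, and 8 of 9 members were called higher, against 1.14% of all genes, the exception being Syce3 (0.65 ± 0.232, edgeR, FDR = 0.0531).

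In mutants the step between the populations was smaller in size, with a median of 0.62 beside 0.0311 over all genes, and 7 of 7 stromal and 7 of 7 macrophage markers were again called lower in c-Kit+ cells. Of 8 markers of differentiating spermatogonia, 5 were called higher there and 1 lower (median 0.666). Sycp3, Syce1, Syce2, Syce3 and Tex12 were called higher in c-Kit+ cells, 5 of 9 against 5.03% of 17346 genes, with Syce3 at 0.71 ± 0.22 (edgeR, FDR = 0.0439) and Sycp3 at 0.70 ± 0.184 (edgeR, FDR = 0.0239). Sycp2 showed the smallest step, 0.33 ± 0.198 (edgeR, FDR = 0.238). The libraries were apart for 6 of 9, the exceptions being Sycp2, Sycp1 and Hormad2, against 26.7% of all genes. These calls rest on few libraries. Without Thy1+ mutant replicate 2 all 9 were called, without Thy1+ mutant replicate 1 only Sycp3 was, and with any of the other 4 left out none was. On the scale of germ cell markers calls over all genes went from 2653 lower and 872 higher to 3617 and 70, 0 of 9 members were called, against 0.404% of all genes, and Sycp2 stood at -0.08. The difference between the steps of both genotypes is the interaction given above and did not pass. The comparisons share the Thy1+ and c-Kit+ libraries with those between genotypes, so they are not independent.

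The 9 genes moved together from library to library. Pearson's r of log2 CPM between pairs of members over the 12 libraries ran from 0.798 (Syce2 and Sycp2) to 0.996 (Hormad1 and Sycp1), with a median of 0.969 over 36 pairs. After subtraction of the group means, r was 0.818 to 0.986, so the members also shared the differences between libraries of the same group. These correlations are descriptions over libraries that share groups, sorts and cell composition, and the mean profile of the members had r = 0.914 with the mean of the germ cell markers. Among 14185 other genes whose log2 CPM averaged 1 or more, the 5 with the profile most like the mean of the members over the 12 libraries were Tex16 (r = 0.997), Btbd10 (r = 0.996), Pi4ka (r = 0.995), Iho1 (r = 0.995) and Taf7l (r = 0.994). Iho1 encodes a partner of HORMAD1 on the axis, and Taf7l a germ cell relative of a general transcription factor subunit. Tex16 had a mean of 80.3 CPM in c-Kit+ controls, 41.5 in Thy1+ controls, 37.3 in c-Kit+ mutants and 23.9 in Thy1+ mutants, the order found for the axis genes.

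Other genes of the meiotic axis and of synapsis were taken from a list of 20, of which 18 were in the count table and all were tested. The list holds the meiotic cohesins, the break machinery that docks on HORMAD1, the remodeler of HORMA proteins TRIP13, and recombination factors that act between the axes. In c-Kit+ cells 14 of 18 were called lower, against 7.41% of all genes, and none higher (median -1.07). The largest differences were those of Meiob (-3.69 ± 0.427, edgeR, FDR = 0.000289), which encodes a single-stranded DNA-binding protein, Shoc1 (-2.72 ± 0.253, edgeR, FDR = 0.000154), a crossover factor, Rad21l (-2.40 ± 0.223, edgeR, FDR = 0.000154), a meiotic cohesin subunit, and Hsf2bp (-1.64 ± 0.186, edgeR, FDR = 0.000267), which brings recombinases to breaks. Iho1 was at -1.06 ± 0.128 (edgeR, FDR = 0.000334). Trip13, Fkbp6, Mei4 and Ccnb1ip1 were the 4 not called, with log2 fold changes from -0.38 to -0.29. Under germ cell marker scaling 10 of 18 were called lower, against 2.56% of all genes (median -0.69). In Thy1+ cells 0 of 18 were called, and 13 of 18 under the replicate block, against 4.92% of all genes called lower there. Between control populations 16 of 18 were called higher in c-Kit+ cells, against 7.08% of all genes. Under germ cell marker scaling 6 of 18 were, against 1.14%.

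A list of 8 genes was made for meiotic entry, with its regulators and also Ccnb3, a cyclin of meiosis. Of these 8, 7 were in the table, and 6 of them were called lower in c-Kit+ mutants (median -0.73), or 2 under germ cell marker scaling (median -0.36). Over all genes these shares were 7.41% and 2.56%, which apply to the lists below as well. Meioc (-3.04 ± 0.227, edgeR, FDR = 8.67e-05) and Ythdc2 (-0.88 ± 0.127, edgeR, FDR = 0.000664) encode partners in an RNA-binding complex that helps germ cells to leave mitosis. Ccnb3 was at -2.05 ± 0.221 (edgeR, FDR = 0.000231) and Zglp1, a transcription factor gene, at -0.73 ± 0.143 (edgeR, FDR = 0.003). In Thy1+ cells none of the meiotic entry genes was called without the block and 3 were with it, against 4.92% of all genes called lower. HORMA domain genes that act outside the meiotic axis, such as the spindle checkpoint gene Mad2l1 and the autophagy genes Atg13 and Atg101, served as relatives of Hormad1 and Hormad2. Of these 5, 1 was called lower in c-Kit+ mutants, Mad2l2 at -0.50 ± 0.0939 (edgeR, FDR = 0.00227), and the median was -0.22, which turned to 0.152 under germ cell marker scaling, where that of all genes was 0.388. Sycp2l, Syce1l and X-linked Xlr genes related to Sycp3 were the sequence relatives of members. Of 12 tested, 8 were called lower in c-Kit+ cells (median -0.63), or 2 under germ cell marker scaling (median -0.25), led in the TMM fit by Xlr5c (-1.22 ± 0.165, edgeR, FDR = 0.000497), but the Xlr copies are near-identical and their counts are uncertain.

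**Figure D5:**
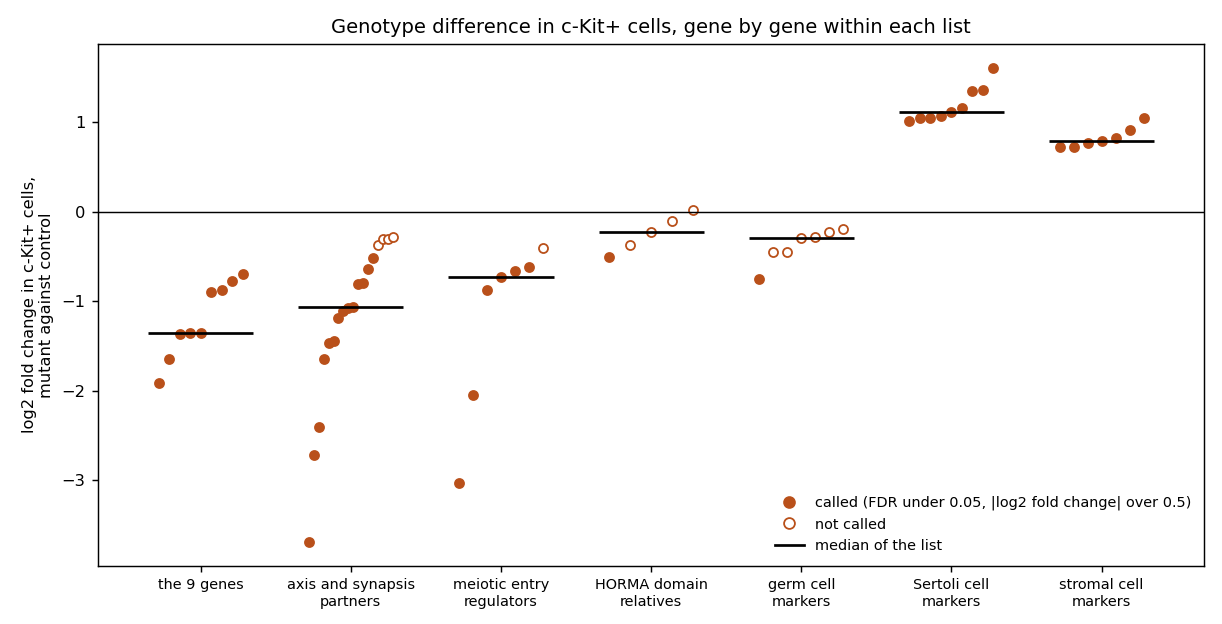
Log2 fold change of mutant against control in c-Kit+ cells (y axis) for every tested gene of 7 lists (x axis), with filled points called, open points not called and a line at the median of each list. The medians of the 9 genes, the axis and synapsis partners and the meiotic entry regulators were -1.35, -1.07 and -0.73, and those of Sertoli and stromal cell markers were 1.12 and 0.795.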

How the data were processed

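Paired-end reads were trimmed (Trimmomatic 0.39), aligned to mm10 (HISAT2 2.1.0) and assigned to RefSeq exons (featureCounts) by the authors, who deposited unnormalised counts for each gene and library. The command in the file header sets no strand option and does not ask for fragments, so each read of a pair was counted (65.6% to 69.5% of counts from 1 to 19 were even). Exon lengths for RPKM came from the same deposited table. Symbols were given to 25275 genes by gene ID, and those without hold 0.511% to 0.776% of a library.

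Groups were compared by two-sided quasi-likelihood tests (R 4.3.3, edgeR 4.0.16, filterByExpr, TMM, glmQLFit and glmQLFTest, Benjamini-Hochberg over all genes tested), with 6 libraries in each fit and 12 in the interaction. The members, gene lists, marker lists and tests were chosen with earlier results of these data known. Named genes are the members, the largest called changes of each list in c-Kit+ cells (at most 4), the 5 genes most like the members, and Chd8, Kit and Thy1. Alternatives were the exact test, DESeq2 1.42.0, its size factors, library size only, germ cell marker scaling, 2 filters, a fit of all 12 libraries, no minimum fold change, a replicate block and each library left out.

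Replicate libraries of a group differed by more than counting error (chi-square per degree of freedom 10.8 to 76.7). The sources do not say whether replicates came from separate animals, so p-values measure only the spread between these libraries, nor that equal replicate numbers belong together. After subtraction of group means, libraries with the same number correlated at 0.399 to 0.646 between genotypes in Thy1+, 0.121 to 0.21 in c-Kit+ and 0.173 to 0.425 between control populations. Each was over the limit of 0.1 for a pair. Between mutant populations the values were 0.0428 to 0.294, so not all passed the limit, nor did all pairs in the interaction. No main fit used the pairing in any comparison, and the replicate block was run only as an alternative. The fits were tested on simulated data. Of 42 samples in the series, the 30 outside the RNA count table were not used here. Promoter sequences are from RefSeq and matched all 9 members by gene ID and start site.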

Additional observations from a re-analysis of the deposited data

How the results depend on the processing

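In c-Kit+ cells all 9 genes were called lower under every alternative except germ cell marker scaling (7), including each library left out (9 each time), and all 160 log2 fold changes and medians kept their sign. Between control populations the count was 6 to 9 with a library left out and 8 under germ cell marker scaling. In Thy1+ cells the count of 0 became 3 by the exact test, 2 by DESeq2, 1 in the fit of all 12 libraries and 7 with the replicate block, and stayed at 0 with any library left out. Between mutant populations the count of 5 became 0 under germ cell marker scaling and 0 to 9 with a library left out, and 7 with the replicate block, although there the same-number correlations (0.0428 to 0.294) overlapped those of other pairs (-0.236 to 0.144). The block changed no other count of members. Signs turned under germ cell marker scaling for Syce2 (0.2154) and Tex12 (0.0845) in Thy1+ cells and for Sycp2 (-0.07578) between mutant populations, and in the interaction for Syce1 without Thy1+ control replicate 1 (0.05083) and without Thy1+ mutant replicate 2 (0.1843) and for Syce3 without the latter (0.009263). With each other library left out, these terms reached down to -0.3738 and -0.5094. Over all genes, the 0 calls in Thy1+ cells became 274 lower and 20 higher by the exact test, 326 and 52 by DESeq2, 236 and 14 in the fit of all 12 libraries and 856 and 558 with the block. In the interaction the block called 24 lower and 422 higher, of which 0 were members. With library size only, calls between populations went to 3252 lower and 1851 higher in controls and to 2393 and 1390 in mutants. Without a minimum fold change, 3139 genes were lower in c-Kit+ mutants, and 2357 and 1534 were higher in c-Kit+ cells of controls and mutants. The smallest count of a member in any library was 154.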
